A study of Mus musculus with 15 samples.

Results

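Macrophage RNA was followed in mouse hearts through 10 marker genes, namely Cd68, Adgre1, Csf1r, Cd163, Mrc1, Lyve1, C1qa, C1qb, C1qc and Lyz2. They were taken by name from a table of 17447 genes, all 10 were found there, and all 10 passed the filter on low counts that left 13021 genes to test. The question was how the level of these markers differs between sham-operated hearts and hearts of mice with chronic kidney disease (CKD), with and without renalase (RNLS).

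Macrophages are phagocytes that clear dead cells and debris. In the healthy heart most of them are resident cells. A part of these express the mannose receptor Mrc1, the haemoglobin scavenger receptor Cd163 and the hyaluronan receptor Lyve1. Injury can bring in blood monocytes, which mature in the tissue and are known for the chemokine receptor Ccr2. Csf1r, the receptor for the growth factor CSF1, keeps both kinds alive. Adgre1 encodes the surface antigen F4/80 and Cd68 a glycoprotein of the lysosome. C1qa, C1qb and C1qc encode the chains of C1q, the protein that starts the classical complement pathway and is made largely by tissue macrophages. Lyz2 encodes lysozyme, an enzyme against bacteria that monocytes, macrophages and neutrophils all make. Lyve1 is also a marker of lymphatic endothelium, so its RNA in whole tissue has more than a single known source.

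The 15 hearts were taken 18 weeks after surgery from male C57BL/6J mice that were 6 to 8 weeks old when they entered the study, and each of 5 groups held 3 of them. WTSHAM were sham-operated wild-type mice, and no vector is named for them. WTCKD were wild-type mice with CKD from subtotal nephrectomy that were given the vector, and WTCKD + RNLS received AAV9-cTnT-RNLS instead, an adeno-associated virus whose cardiac troponin T promoter drives renalase in cardiomyocytes. KOCKD and KOCKD + RNLS were the same 2 treatments in rnls-/- mice, a line with a TALEN-induced deletion, again with CKD. No sham-operated knockout group was analysed here, the vector came with CKD in every diseased group, and Rnls itself was not analysed here as a check of the genotype. In RNA of unsorted heart tissue, fewer macrophages, less RNA per macrophage and a larger share of RNA from other cells cannot be told apart.

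The gene counts of a library summed to 10480788 to 13424078, and the members had between 58 counts (Cd68) and 3535 counts (Lyz2) in a library. Levels are given as CPM, the count of a gene scaled to the TMM-adjusted size of its library, and fold changes come from edgeR's quasi-likelihood test on counts, with p-values adjusted after Benjamini and Hochberg over the 13021 genes. Where nothing in the labels says more, each library is taken as 1 mouse, and p-values measure the spread between mice of a group. Libraries also differed in atrial tissue. Myl7, the atrial myosin light chain, ran from 0.325 to 805 CPM, was under 1 CPM in all 3 KOCKD + RNLS hearts and was over 50 CPM in 7 of the other hearts. Where adding an atrial score as a covariate changed a call or a direction, the value is given beside the result. The same holds for leaving out those 7 hearts, but only for the fold changes of the members. For the test across all groups together, only the number of members that passed without those hearts is given. For genes outside the members no value without those hearts is given, so its absence does not show that a call held.

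The 3 C1q genes lie side by side on the minus strand of chromosome 4. In the mm9 annotation, C1qb is at chr4:136436044-136442102, C1qc at chr4:136445719-136448980 and C1qa at chr4:136451832-136454718, so that the cluster spans 18675 bases with gaps of 3616 and 2851 bases. The exons of 9 members overlap no other gene. Those of Csf1r share 871 bases with Hmgxb3 on the other strand, and since the strand option of the counting was not given in the sources used here, a share of its reads may belong to that gene. Lyz2, at chr10:116714390-116719377, has a close relative, Lyz1, with which reads could be exchanged, and Lyz1 had 8 to 54 counts a library.

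Promoters (the 250 bases before the transcription start, RefSeq, GRCm38.p6) were found for 6 of the 10 members. Shown are those of C1qb and C1qc, whose RNA varied together, and of Lyz2 and Cd163, whose fold changes had opposite signs on RNLS treatment of knockout mice. Capitals mark GAGGAA or its reverse complement TTCCTC, the core bound by PU.1, the transcription factor that macrophages depend on.
C1qb (chr4:136886201-136886450, minus strand): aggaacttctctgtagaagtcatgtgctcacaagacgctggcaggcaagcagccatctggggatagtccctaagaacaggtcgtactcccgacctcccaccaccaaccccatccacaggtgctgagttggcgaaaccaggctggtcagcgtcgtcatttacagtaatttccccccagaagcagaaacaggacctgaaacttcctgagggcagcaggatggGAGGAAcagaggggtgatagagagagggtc
C1qc (chr4:136892915-136893164, minus strand): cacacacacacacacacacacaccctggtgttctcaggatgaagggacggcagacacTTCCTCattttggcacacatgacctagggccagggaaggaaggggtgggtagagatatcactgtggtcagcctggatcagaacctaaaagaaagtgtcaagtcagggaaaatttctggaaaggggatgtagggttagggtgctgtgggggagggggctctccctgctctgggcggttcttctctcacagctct
Lyz2 (chr10:117282273-117282522, minus strand): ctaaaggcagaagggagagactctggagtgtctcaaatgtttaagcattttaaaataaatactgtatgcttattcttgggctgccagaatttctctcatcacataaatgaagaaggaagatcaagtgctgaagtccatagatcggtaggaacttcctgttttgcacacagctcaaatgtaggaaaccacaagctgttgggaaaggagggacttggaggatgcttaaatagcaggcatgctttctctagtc
Cd163 (chr6:124304401-124304650, plus strand): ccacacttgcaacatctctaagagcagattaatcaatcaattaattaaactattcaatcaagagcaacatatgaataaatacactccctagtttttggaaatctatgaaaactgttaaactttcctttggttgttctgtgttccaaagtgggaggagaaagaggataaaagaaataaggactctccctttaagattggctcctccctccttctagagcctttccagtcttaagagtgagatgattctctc
The core was found once in C1qb, 30 bases before the start, and once in C1qc, 193 bases before it. It also occurred 1 time in the Cd68 promoter and 3 times in that of Mrc1, and neither Lyz2 nor Cd163 held these letters in this window. Of 32851 promoters of the same length, 23.3% hold the core on either strand, so a match alone separates no member from other genes. TGCTGA, a core of MAF factors, was found in C1qb and Lyz2 and in 16.1% of all promoters. TTGCNNAA, for C/EBP factors, was found in Cd68 only and in 9.56% of all promoters. The interferon-stimulated response element was found in none of the 6 and in 2.98% of all promoters.

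Lysozyme RNA was the most abundant of the markers. Per length and depth, on the scale of the deposited FPKM, the median over 15 hearts was 154 for Lyz2, then 52.0 for C1qa, 44.4 for C1qc and 42.6 for C1qb. Csf1r followed at 11.4, Cd68 at 9.97, Lyve1 at 8.18, Mrc1 at 6.04, Cd163 at 4.02 and Adgre1 at 3.13. The 3 C1q chains, which are assembled in equal number in the C1q protein, had similar RNA levels in each heart. C1qb stood at 0.737 to 1.0003 FPKM per FPKM of C1qa over the 15 hearts, and C1qc at 0.731 to 0.962.

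All 10 markers had their highest mean in WTSHAM hearts. That is a position that 22.9% of all tested genes held. The lowest mean was in KOCKD + RNLS for 8 markers and in KOCKD for Cd163 and Lyve1, and the mean in the highest group was 1.72 (Csf1r) to 2.69 (Cd68) times that in the lowest. Across the 5 groups together, 9 of 10 markers differed at an adjusted p under 0.05 in edgeR's F test, against 22.2% of all tested genes, with adjusted p-values from 0.000495 (C1qa) to 0.0154 (Csf1r). Cd163 had an adjusted p of 0.0516. With the atrial score (the mean log2 CPM of Myl7, Myl4 and Sln) as a covariate 8 markers passed, and the call lost was that of Csf1r (edgeR adjusted p = 0.0549). Without the 7 hearts in which Myl7 was over 50 CPM 3 markers passed, with 1 heart each left in WTSHAM, WTCKD and KOCKD.

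**Figure D1:**
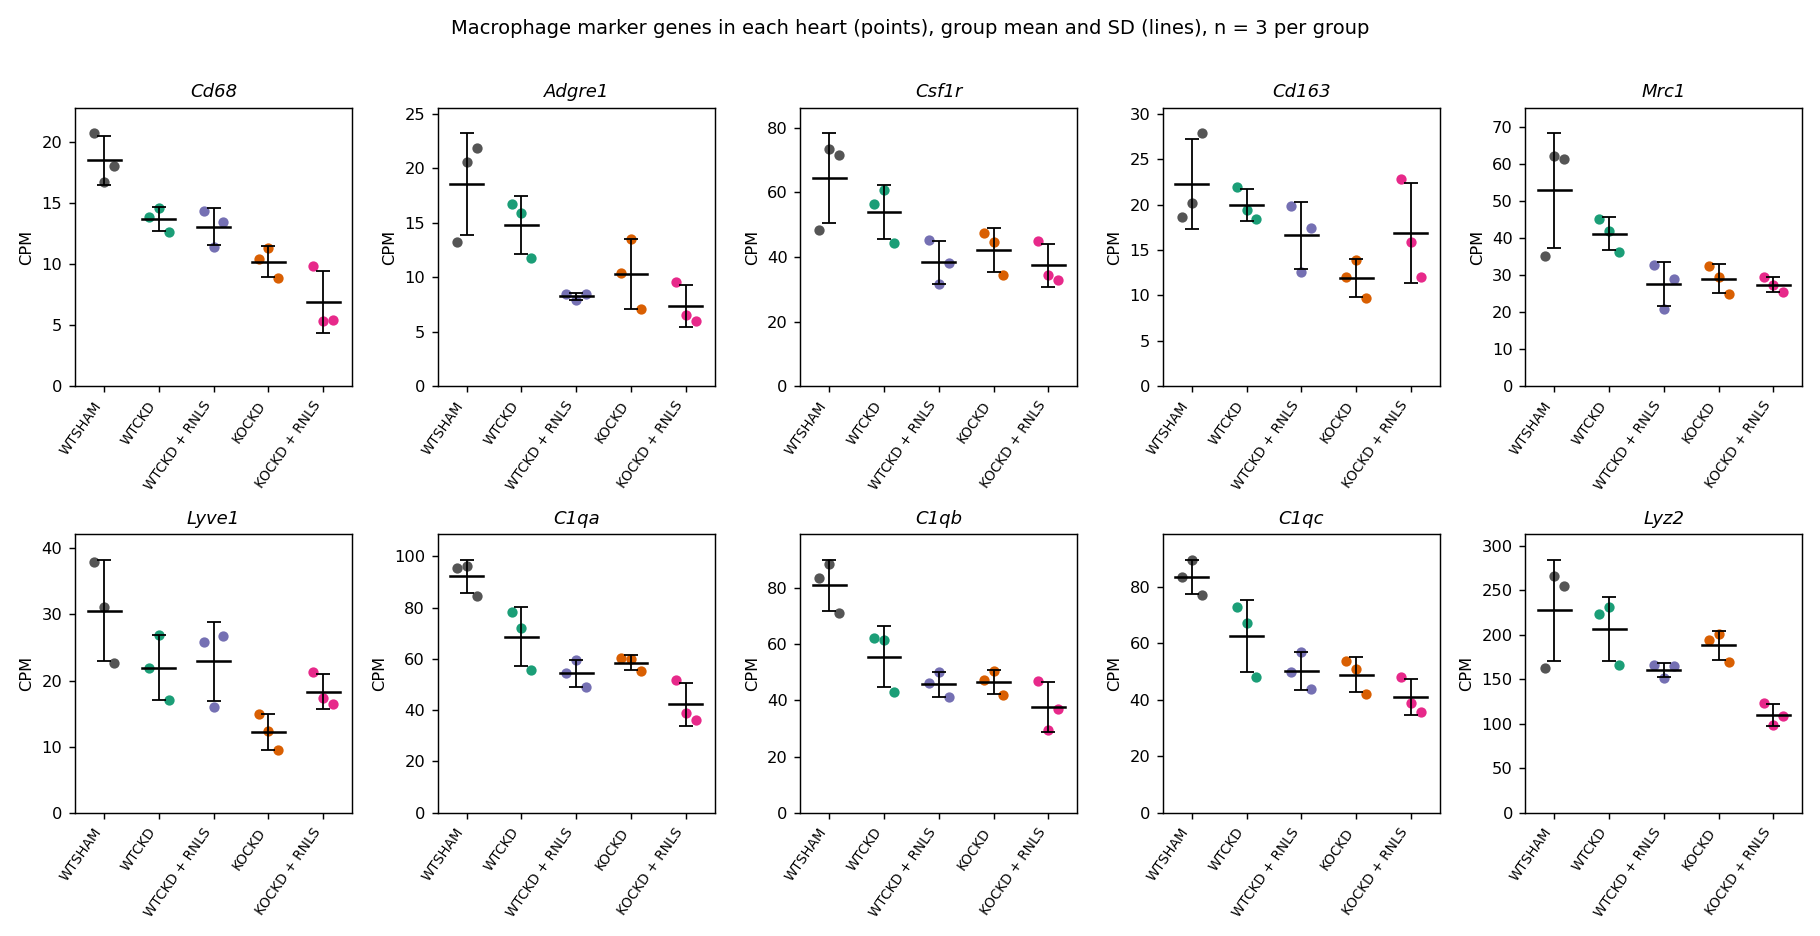
CPM of each of the 10 macrophage markers in every heart, in panels by gene with an axis from 0, coloured points for the 3 hearts of each of the 5 groups, a horizontal line for the mean and bars for the SD. Every panel has its highest mean in WTSHAM and its lowest in 1 of the 2 knockout groups.

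When the 5 groups were put in order of their mean for each marker, 0 of the 40 neighbouring pairs of groups passed the adjusted threshold in edgeR, and 12 passed an unadjusted p under 0.05. These neighbours were chosen by their means and have 3 hearts each, so the missing calls do not show that neighbours were alike. DESeq2 called WTSHAM above WTCKD for C1qb (adjusted p = 0.0385) and KOCKD above KOCKD + RNLS for Cd68 (adjusted p = 0.0441), and groups farther apart in the order passed in edgeR, as described further on.

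C1q RNA was highest in all 3 sham hearts. C1qa stood at 95.5, 96.3 and 84.6 CPM in WTSHAM, 78.3, 72.0 and 55.8 in WTCKD, 54.4, 59.7 and 49.2 in WTCKD + RNLS, 60.3, 60.0 and 55.3 in KOCKD, and 51.7, 38.9 and 36.2 in KOCKD + RNLS. All WTSHAM hearts lay above all others, and 2 KOCKD + RNLS hearts lay below all others. C1qb stood at 83.6, 88.4 and 70.9 CPM in WTSHAM, 62.2, 61.3 and 42.9 in WTCKD, 46.2, 49.9 and 41.1 in WTCKD + RNLS, 47.3, 50.5 and 41.8 in KOCKD, and 46.9, 29.3 and 37.0 in KOCKD + RNLS. C1qc stood at 83.7, 89.6 and 77.3 CPM in WTSHAM, 72.7, 67.1 and 48.2 in WTCKD, 49.9, 57.1 and 43.9 in WTCKD + RNLS, 53.8, 50.9 and 42.0 in KOCKD, and 48.1, 38.9 and 35.9 in KOCKD + RNLS. Both had their highest mean in WTSHAM, then WTCKD, and their lowest in KOCKD + RNLS, like C1qa, while KOCKD stood above WTCKD + RNLS for C1qa and C1qb and below it for C1qc. In each of the 3 genes the low heart of WTCKD was replicate 3.

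Lyz2 was spread widely in sham hearts and lowest in treated knockout hearts. Its level was 163, 266 and 255 CPM in WTSHAM, 223, 231 and 165 in WTCKD, 166, 151 and 164 in WTCKD + RNLS, 194, 201 and 170 in KOCKD, and 123, 98.4 and 109 in KOCKD + RNLS. The 3 KOCKD + RNLS hearts were below the 12 others, and WTSHAM replicate 1 was as low as the WTCKD + RNLS hearts. The column of that sham heart carries a name prefix (WM) that differs from the prefix (WT) of the other 2 sham hearts. The sources used here do not say what the prefixes stand for. They also differ between the CKD groups, with wm for WTCKD, s for KOCKD, WM for KOCKD + RNLS, and RM or WM for WTCKD + RNLS. In KOCKD against WTCKD and in KOCKD + RNLS against KOCKD, prefix and group cannot be told apart.

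Of the genes that mark macrophages of any origin, Cd68 had a lower mean in each group in turn. Its means in WTCKD (13.7 CPM) and WTCKD + RNLS (13.1 CPM) were close, and these groups overlapped. It stood at 20.8, 16.8 and 18.0 CPM in WTSHAM, 13.9, 14.6 and 12.7 in WTCKD, 14.3, 11.4 and 13.5 in WTCKD + RNLS, 10.4, 11.4 and 8.86 in KOCKD, and 9.83, 5.37 and 5.43 in KOCKD + RNLS. KOCKD + RNLS replicate 1 was well above the other 2 hearts of its group and inside the KOCKD range. Adgre1 stood at 13.3, 20.6 and 21.9 CPM in WTSHAM, 16.7, 15.9 and 11.7 in WTCKD, 8.42, 7.89 and 8.50 in WTCKD + RNLS, 10.4, 13.5 and 7.09 in KOCKD, and 9.58, 6.53 and 5.99 in KOCKD + RNLS. The WTCKD + RNLS hearts were close together and below every wild-type heart without RNLS. Csf1r stood at 48.5, 73.4 and 71.6 CPM in WTSHAM, 56.4, 60.7 and 44.5 in WTCKD, 45.1, 31.6 and 38.2 in WTCKD + RNLS, 47.5, 44.6 and 34.5 in KOCKD, and 44.996, 34.3 and 32.9 in KOCKD + RNLS. Its WTCKD range overlapped every other group.

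The 3 genes linked to resident macrophages did not share an order. Mrc1 stood at 35.1, 62.3 and 61.5 CPM in WTSHAM, 45.3, 41.9 and 36.4 in WTCKD, 32.7, 21.0 and 29.0 in WTCKD + RNLS, 32.6, 29.6 and 25.0 in KOCKD, and 29.5, 27.3 and 25.5 in KOCKD + RNLS. Its last 3 groups could not be separated, with means of 27.6 ± 5.99, 29.1 ± 3.82 and 27.4 ± 2.01 CPM (SD, n = 3). Cd163 stood at 18.7, 20.2 and 27.9 CPM in WTSHAM, 21.9, 19.5 and 18.5 in WTCKD, 19.9, 12.6 and 17.4 in WTCKD + RNLS, 12.1, 13.9 and 9.74 in KOCKD, and 22.8, 15.9 and 12.0 in KOCKD + RNLS. Lyve1 stood at 38.0, 31.1 and 22.7 CPM in WTSHAM, 21.9, 26.9 and 17.0 in WTCKD, 25.9, 16.1 and 26.8 in WTCKD + RNLS, 14.9, 12.3 and 9.502 in KOCKD, and 21.3, 17.4 and 16.4 in KOCKD + RNLS. The KOCKD hearts were the lowest 3 of all 15 for Lyve1, and for Cd163 the KOCKD mean was the lowest while its highest heart passed the lowest hearts of both RNLS groups.

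The comparison of WTCKD with WTSHAM asked what CKD does to the wild-type heart. No macrophage marker passed the adjusted threshold, and no marker rose. All 10 fold changes were below 0, as were 50.9% of those of all tested genes, with a median of -0.39 on the log2 scale for the markers and -0.01 for all genes. edgeR called 0 of 10 markers, against 2.3% of all genes, and DESeq2 called 1, C1qb, with an adjusted p of 0.0385. At the study's rule (a log2 fold change beyond 0.32 and an unadjusted p under 0.05) 5 markers were lower, against 7.63% of all genes, namely Cd68, Lyve1 and the 3 C1q genes, which were also the 5 with an unadjusted p under 0.05 (17.6% of all genes). Here and below, that rule takes only the thresholds from the study. Its p-values are those of edgeR, whereas the study used DESeq.

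The C1q genes and Cd68 came closest. C1qb changed by -0.55 on the log2 scale (SE 0.16, edgeR adjusted p = 0.0851), from 80.9 ± 9.03 to 55.5 ± 10.9 CPM (SD, n = 3 each). C1qa changed by -0.42 (SE 0.13, edgeR adjusted p = 0.103), and C1qc by -0.41 (SE 0.15, edgeR adjusted p = 0.154). The WTCKD and WTSHAM hearts did not overlap for these 3 genes and for Cd68, which makes 4 of 10 markers against 12.2% of all genes. Mrc1 changed by -0.36 (SE 0.19, edgeR adjusted p = 0.335), and without WTSHAM replicate 1 by -0.59 (edgeR adjusted p = 0.0458). That 1 sham heart thus decides the call of Mrc1. Cd163 (-0.16) and Lyz2 (-0.14) differed by less than their standard errors of 0.22 and 0.16. Without the 7 hearts with Myl7 over 50 CPM, which leaves WTSHAM replicate 1 and WTCKD replicate 3, the fold changes of Mrc1 and Lyz2 turned to 0.06 and 0.03, neither called.

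Outside the members, single macrophage genes moved much further with CKD. Siglec1, the sialoadhesin of resident macrophages, fell from 24.3, 28.3 and 18.7 CPM in WTSHAM to 8.03, 4.96 and 6.29 in WTCKD, a log2 fold change of -1.88 (SE 0.27, edgeR adjusted p = 0.00155). Fcgr1, the high-affinity IgG receptor, fell from 11.3, 9.02 and 6.18 CPM to 3.46, 2.29 and 2.04, a log2 fold change of -1.76 (SE 0.27, edgeR adjusted p = 0.00213). For both genes no WTCKD heart reached a sham heart, and the hearts of the other CKD groups were also below every sham heart, with highest values of 8.42 CPM for Siglec1 and 3.003 CPM for Fcgr1. Each was the only gene called in its list. These lists were 17 resident cardiac macrophage genes, with 12 below 0 and a median of -0.18, and 14 tested genes of recruited monocytes and their progeny, with 10 below 0 and a median of -0.43. Of all tested genes 2.3% were called and 50.9% were below 0.

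Signals to macrophages moved in both directions. Csf1, the ligand of Csf1r, fell from 97.5 ± 16.9 to 57.3 ± 7.84 CPM (log2 fold change -0.77, SE 0.12, edgeR adjusted p = 0.00302). Tgfb1, a growth factor that macrophages both make and respond to, rose from 35.3 ± 5.65 to 51.2 ± 4.67 CPM (log2 fold change 0.53, SE 0.11, edgeR adjusted p = 0.0145). They were the 2 called genes among 9 tested growth factors and chemoattractants. C3ar1, the receptor for complement fragment C3a, fell from 13.2 ± 3.002 to 6.303 ± 0.63 CPM (log2 fold change -1.06, SE 0.19, edgeR adjusted p = 0.0062), the only call among 8 tested complement genes besides C1q. With only the libraries of the 2 groups in the fit, the edgeR adjusted p-values of C3ar1, Csf1 and Tgfb1 were 0.0503, 0.0566 and 0.0965, and the call of Tgfb1 was also lost without WTSHAM replicate 3 (0.0621) or WTCKD replicate 2 (0.0781). Of 26 further myeloid genes 23 were below 0 and 0 were called, and of 7 genes for MHC class II, which presents antigen, 7 were below 0 and 0 were called. The shares over all tested genes, for each of these lists, were 2.3% called and 50.9% below 0.

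**Figure D2:**
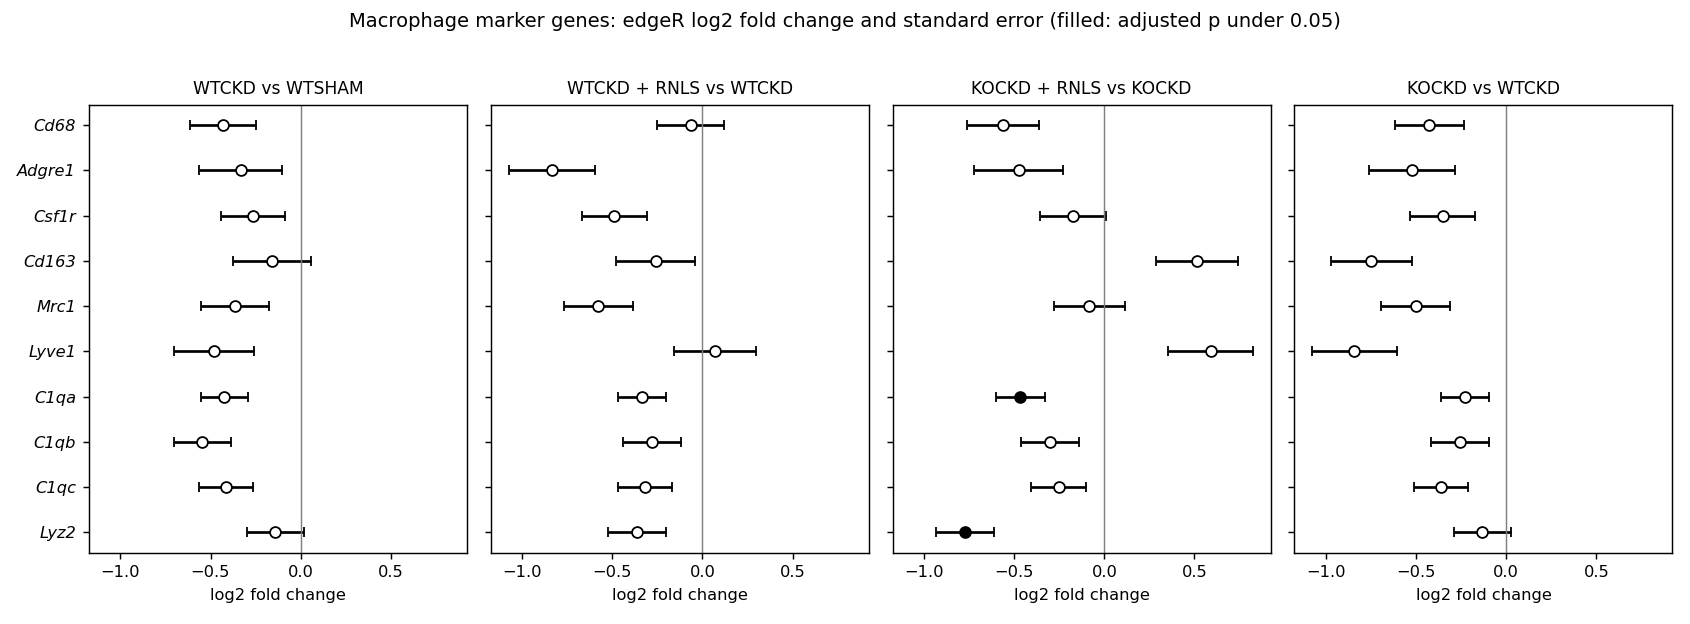
log2 fold change (horizontal axis) of the 10 macrophage markers (rows) in 4 comparisons (panels), as points with bars of 1 standard error from edgeR, filled where the adjusted p was under 0.05. Only C1qa and Lyz2 in the panel of KOCKD + RNLS against KOCKD are filled, and in that panel Cd163 and Lyve1 lie to the right of 0.

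WTCKD + RNLS against WTCKD asked what renalase from cardiomyocytes changes in wild-type CKD hearts. Again no marker was called by edgeR (0 of 10, against 4.47% of all genes), while 9 of 10 fold changes were below 0 (47.8% of all genes), with a median of -0.33 against 0.01 for all genes. DESeq2 called 1, Adgre1, 6 markers had an unadjusted p under 0.05 (20.2% of all genes), and 5 were lower at the study's rule (8.09% of all genes). F4/80 RNA (Adgre1) was the marker nearest to a call, at 14.8 ± 2.67 CPM in WTCKD and 8.27 ± 0.331 CPM in WTCKD + RNLS (log2 fold change -0.84, SE 0.24, edgeR adjusted p = 0.0604). It passed with no filter on low counts (adjusted p = 0.0446), with only the libraries of the compared groups (adjusted p = 0.0243) and without WTCKD replicate 3 (adjusted p = 0.0488), all in edgeR.

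Mrc1 was the other marker whose groups did not overlap, with a log2 fold change of -0.58 (SE 0.19, edgeR adjusted p = 0.105). That makes 2 of 10 markers lower without overlap, against 10.7% of all genes. Csf1r (-0.49), Lyz2 (-0.36), C1qa (-0.34), C1qc (-0.32), C1qb (-0.28) and Cd163 (-0.26) had smaller fold changes with adjusted p-values of 0.142 to 0.562 in edgeR. Cd68 (-0.07, SE 0.19) and Lyve1 (0.07, SE 0.23) lay within their standard errors of 0. Without the 7 hearts with Myl7 over 50 CPM, the fold changes of Cd68 and the 3 C1q genes turned to between 0.02 and 0.16, with WTCKD replicate 3 as the only WTCKD heart left.

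In the same comparison, 3 of 9 growth factors and chemoattractants were called, all lower, against 4.47% of all genes called and 297 of 13021 called lower. Cx3cl1, the ligand of the receptor Cx3cr1 on monocytes and macrophages, went from 22.4 ± 1.72 to 10.7 ± 0.596 CPM (log2 fold change -1.07, SE 0.13, edgeR adjusted p = 0.000416). Tgfb1 fell by 0.58 on the log2 scale (SE 0.11, edgeR adjusted p = 0.00753), and Il4ra, the receptor for interleukin 4, by 0.53 (SE 0.14, edgeR adjusted p = 0.044). Slc40a1, the iron exporter ferroportin, fell by 0.57 (SE 0.14, edgeR adjusted p = 0.0266), the only call among 12 genes of phagocytosis and iron handling. With only the libraries of the 2 groups in the fit, the edgeR adjusted p-values of Il4ra and Slc40a1 were 0.094 and 0.066, and with the atrial covariate that of Il4ra was 0.051. Both calls were lost without WTCKD replicate 1 (edgeR adjusted p = 0.147 and 0.102), WTCKD replicate 3 (0.0597 and 0.0817) or WTCKD + RNLS replicate 3 (0.145 and 0.0961). That of Il4ra was also lost without WTCKD replicate 2 (0.103) or WTCKD + RNLS replicate 2 (0.0908), and that of Slc40a1 without WTCKD + RNLS replicate 1 (0.0651). MHC class II genes had a median of -0.76 with 7 of 7 below 0 and 0 called, where 47.8% of all genes were below 0.

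KOCKD + RNLS against KOCKD asked the same of knockout hearts, and here 2 markers were called, both lower. Lyz2 fell from 188 ± 16.3 to 110 ± 12.5 CPM (log2 fold change -0.77, SE 0.16, edgeR adjusted p = 0.00599), and C1qa from 58.5 ± 2.80 to 42.3 ± 8.28 CPM (log2 fold change -0.47, SE 0.14, edgeR adjusted p = 0.0289). In this comparison 16.1% of all genes were called and 7.04% were called lower, so 2 of 10 is not far from that background. At an unadjusted p under 0.05 there were 5 markers (31.6% of all genes), and at the study's rule 3 were lower (10.1% of all genes) and 2 higher (12.2%). Without overlap between the groups 2 markers were lower (20.0% of all genes), the called ones, and 1 was higher (20.6%), Lyve1. Lyz2 was called in all 6 fits that left out a heart, with edgeR adjusted p-values of 0.0108 to 0.0365. The call of C1qa was lost without any of the 3 KOCKD hearts and without KOCKD + RNLS replicate 2 or 3 (edgeR adjusted p of 0.0758, 0.0939 and 0.05004 for the KOCKD hearts, 0.125 and 0.127 for the others). It was kept without KOCKD + RNLS replicate 1, with a log2 fold change of -0.64.

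Cd68 changed by -0.56 (SE 0.20, edgeR adjusted p = 0.0669) in the edgeR fit of all hearts. DESeq2 called it on the same hearts (-0.56, adjusted p = 0.0441), and edgeR did without KOCKD + RNLS replicate 1 (-0.92, edgeR adjusted p = 0.00955), so that its call depends on the tool and on that heart. Adgre1 (-0.48), C1qb (-0.30), C1qc (-0.25), Csf1r (-0.17) and Mrc1 (-0.08) were not called, with edgeR adjusted p-values of 0.202 to 0.804. Cd163 and Lyve1 had the opposite sign. Lyve1 was 12.2 ± 2.68 CPM in KOCKD and 18.3 ± 2.59 CPM in KOCKD + RNLS without overlap (log2 fold change 0.59, SE 0.24, edgeR adjusted p = 0.1). Cd163 was 11.9 ± 2.07 and 16.9 ± 5.49 CPM with overlap (log2 fold change 0.51, SE 0.23, edgeR adjusted p = 0.132). With the fit restricted to the 6 hearts of the comparison Lyve1 passed (adjusted p = 0.0237).

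Atrial markers differed in the same comparison. Myl7 was 53.1, 4.85 and 805 CPM in KOCKD and 0.325, 0.662 and 0.749 CPM in KOCKD + RNLS. With an atrial score as covariate, the log2 fold change of Lyz2 was -0.58 (edgeR adjusted p = 0.0288) and that of C1qa -0.44 (edgeR adjusted p = 0.0747). Mrc1 turned from -0.08 to 0.13 with the covariate and was not called. Leaving out the hearts with Myl7 over 50 CPM gave -0.87 for Lyz2 (edgeR adjusted p = 0.023) and -0.51 for C1qa (edgeR adjusted p = 0.146).

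Few genes of the other macrophage lists were called in the treated knockout hearts. Over all tested genes 16.1% were called, 7.04% were called lower and 50.9% were below 0. H2-Aa and H2-Eb1, chains of MHC class II, fell by 1.06 and 1.09 on the log2 scale (SE 0.31 and 0.32, edgeR adjusted p = 0.0313 and 0.0316), the 2 called of 7. Of 26 further myeloid genes 25 were below 0 and 2 were called, Ms4a7 (-1.02, SE 0.29, edgeR adjusted p = 0.0258) and Ctss, the lysosomal protease cathepsin S (-0.68, SE 0.21, edgeR adjusted p = 0.04). These 2 of 26 are close to the share of all genes called lower. Cx3cl1 (-0.84) and Il4ra (-0.47) were called again, with edgeR adjusted p-values of 0.00166 and 0.0361. Abca1, a cholesterol exporter, rose by 0.80 (SE 0.16, edgeR adjusted p = 0.00455), while the fatty acid carrier Cd36 (-0.47, edgeR adjusted p = 0.00296) and Slc40a1 (-0.43, edgeR adjusted p = 0.0418) fell. Cd36 is also abundant in heart muscle and its capillaries, and its mean was 2062 CPM in KOCKD and 1490.3 CPM in KOCKD + RNLS. The calls of Ctss, Ms4a7, H2-Aa, H2-Eb1, Il4ra and Slc40a1 were each lost without KOCKD replicate 2 (edgeR adjusted p of 0.0963 to 0.137) and without KOCKD + RNLS replicate 2 (0.0591 to 0.167). Each of the other 4 hearts ended the calls of some of them, with adjusted p-values of up to 0.155. With the atrial covariate, whose markers differ strongly between these groups, 5 of these 6 calls were lost, with edgeR adjusted p-values of 0.125 for Ctss, 0.106 for H2-Eb1, 0.102 for H2-Aa, 0.0554 for Ms4a7 and 0.0517 for Il4ra. Slc40a1 kept its call there (0.0111) and lost it with no filter on low counts (0.0514). Cx3cl1, Cd36 and Abca1 were called with the covariate and with any single heart left out. Of 17 resident and 14 recruited macrophage genes, 10 and 14 were below 0 and 0 of either list were called.

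**Figure D3:**
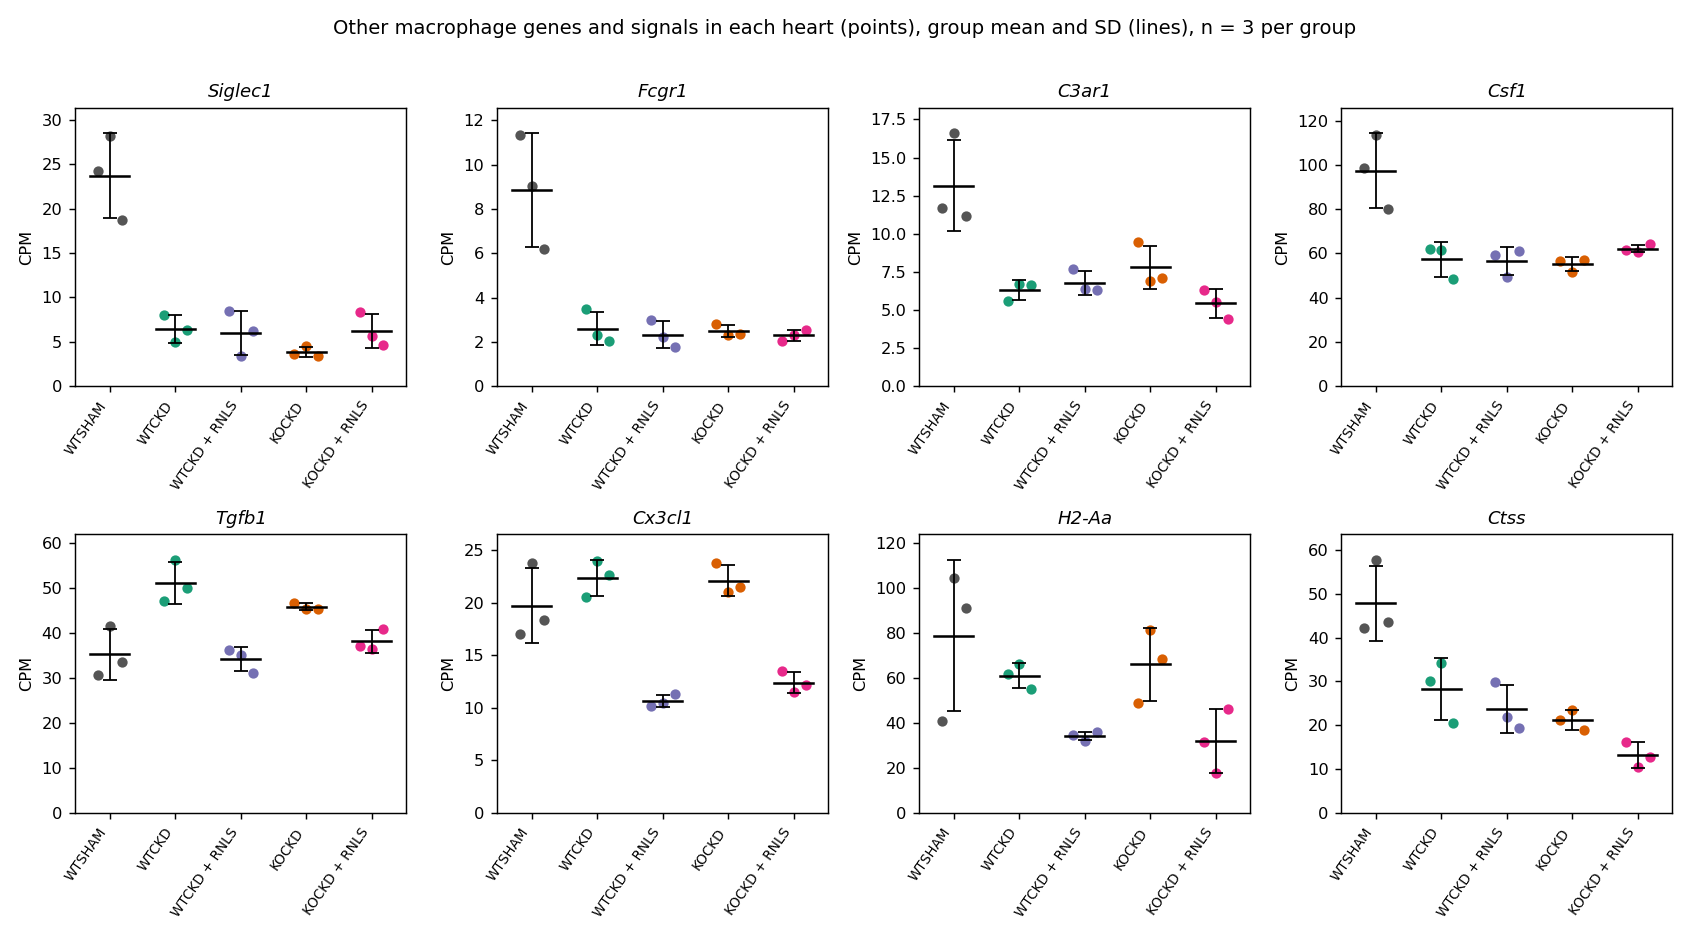
CPM of 8 genes outside the 10 members in every heart, in panels by gene with an axis from 0, points for the 3 hearts of each group, a line for the mean and bars for the SD. Siglec1 and Fcgr1 separate the sham hearts from the 12 CKD hearts, while Cx3cl1 is lower in both RNLS groups, with means of 10.7 and 12.4 CPM against 22.4 and 22.1 CPM without RNLS.

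KOCKD against WTCKD asked what the lack of renalase changes in CKD. Every one of the 10 fold changes was below 0 (50.8% of all genes), the median was -0.39 against -0.0047 for all genes, and no gene of the 13021 was called (0%) by edgeR. Without the 7 hearts with Myl7 over 50 CPM, which leaves WTCKD replicate 3 and KOCKD replicate 2, 6 of the 10 fold changes turned above 0, at 0.01 for Csf1r, 0.08 for C1qc, 0.11 for C1qa, 0.21 for Adgre1, 0.24 for C1qb and 0.29 for Lyz2, with none called. With the atrial covariate all 10 were below 0. At an unadjusted p under 0.05 there were 1318 genes (10.1%) and 6 markers, DESeq2 called 10 genes and 0 markers, and 6 markers were lower at the study's rule (3.68% of all genes). Lyve1 had a log2 fold change of -0.84 (SE 0.24, edgeR adjusted p = 0.444), from 21.9 ± 4.94 to 12.2 ± 2.68 CPM. Cd163 had -0.75 (SE 0.23, edgeR adjusted p = 0.444), from 19.9 ± 1.76 to 11.9 ± 2.07 CPM. Mrc1 (-0.50) and Cd68 (-0.43) were the other markers without overlap, which makes 4 of 10, against 9.44% of all genes. C1qa (-0.23), C1qb (-0.25) and Lyz2 (-0.13) had unadjusted p-values of 0.102, 0.134 and 0.411 in edgeR.

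Whether RNLS acted differently in the knockout was tested as the difference of its log2 fold changes, knockout minus wild type. edgeR called 0 markers and 0 genes (0%), 2288 genes (17.6%) and 1 marker had an unadjusted p under 0.05, and DESeq2 called 374 genes and 0 markers. The marker was Cd163, with a difference of 0.77 (SE 0.32, unadjusted p = 0.0263, edgeR adjusted p = 0.225). Lyve1 (0.52, SE 0.33), Mrc1 (0.49, SE 0.28), Cd68 (-0.50, SE 0.27) and Lyz2 (-0.41, SE 0.23) had edgeR adjusted p-values of 0.355 to 0.43. For C1qa (-0.13, SE 0.19), C1qb (-0.02, SE 0.23) and C1qc (0.07, SE 0.21) the difference was smaller than its standard error. Without the hearts with Myl7 over 50 CPM, the differences of Adgre1, Csf1r and C1qc turned to -0.35, -0.05 and -0.47, none called. The opposite signs of Lyve1 and Cd163 against Lyz2 in knockout hearts are thus not shown to differ from wild-type hearts.

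The other 6 pairs of groups were tested after their values had been seen, in the same fit. Whether these calls hold with the atrial covariate or without the hearts high in Myl7 was not tested. Against WTSHAM, KOCKD had 9 markers called, all lower (13.8% of all genes called, 8.35% lower). Lyve1 fell by 1.32 on the log2 scale (SE 0.23, edgeR adjusted p = 0.00298), Cd163 by 0.91 (SE 0.22, edgeR adjusted p = 0.017) and C1qb by 0.80 (SE 0.16, edgeR adjusted p = 0.00611), and Lyz2, at -0.27 (SE 0.16, edgeR adjusted p = 0.247), was the exception. KOCKD + RNLS also had 9 markers called against WTSHAM, all lower (11.1% of all genes called, 6.34% lower), with Cd163 as the exception at -0.39 (SE 0.22, edgeR adjusted p = 0.268). There Cd68 fell by 1.42 (SE 0.19, edgeR adjusted p = 0.000388), C1qa by 1.12 (SE 0.13, edgeR adjusted p = 0.000258) and Lyz2 by 1.05 (SE 0.16, edgeR adjusted p = 0.000803). In WTCKD + RNLS 6 markers were lower than in WTSHAM (7.69% of all genes called, 4.81% lower), Adgre1 most, by 1.17 (SE 0.24, edgeR adjusted p = 0.00726). These comparisons share the 3 sham hearts, and they combine the operation with the vector, with RNLS or with the genotype, which cannot be told apart here.

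Among the CKD groups, KOCKD + RNLS had 6 markers called lower than WTCKD (7.51% of all genes called, 3.44% lower), namely Adgre1, which fell by 0.998 on the log2 scale in edgeR, Cd68, by 0.99, Lyz2, by 0.91, and C1qa, C1qc and C1qb, by 0.70, 0.61 and 0.56. Mrc1, Csf1r, Lyve1 and Cd163 were not called. KOCKD against WTCKD + RNLS had 1 marker called (6.64% of all genes called, 4.45% lower), Lyve1, which was lower by a log2 fold change of -0.91 (SE 0.23, edgeR adjusted p = 0.0304). Between KOCKD + RNLS and WTCKD + RNLS 0 markers were called by edgeR (0.338% of all genes), and 3 had an unadjusted p under 0.05 (15.5% of all genes). Cd68 had -0.92 there (SE 0.20, edgeR adjusted p = 0.0534) and Lyz2 -0.54 (SE 0.16, edgeR adjusted p = 0.132).

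The makeup of the marker RNA also varied. To compare genes within a heart, FPKM were set against those of C1qa, a choice made after the values had been seen and given without a test, since 3 hearts against 3 cannot reach an exact p under 0.1. Per 100 FPKM of C1qa, Lyve1 stood at 16.5, 13.4 and 11.1 FPKM in WTSHAM, 11.6, 15.5 and 12.7 in WTCKD, 19.7, 11.2 and 22.6 in WTCKD + RNLS, 10.2, 8.51 and 7.13 in KOCKD, and 17.1, 18.5 and 18.8 in KOCKD + RNLS. The KOCKD hearts were below the other 12. Cd163 stood at 4.69, 5.04 and 7.91 FPKM per 100 FPKM of C1qa in WTSHAM, 6.71, 6.48 and 7.94 in WTCKD, 8.77, 5.08 and 8.48 in WTCKD + RNLS, 4.802, 5.56 and 4.23 in KOCKD, and 10.6, 9.79 and 7.94 in KOCKD + RNLS. The 2 knockout groups did not overlap in this ratio, although they overlapped in the CPM of Cd163. C1qa was itself called lower in KOCKD + RNLS than in KOCKD (log2 fold change -0.47), and every ratio to it carries that fall.

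Mrc1 and Lyz2 relative to C1qa were also apart between the 2 knockout groups, but not from the wild-type hearts. In KOCKD + RNLS against KOCKD, Mrc1 itself had a log2 fold change of -0.08 and was not called. That of Lyz2 was -0.77 and that of C1qa -0.47. Mrc1 ran from 9.21 to 10.999 FPKM per 100 FPKM of C1qa in KOCKD, from 11.6 to 14.3 in KOCKD + RNLS and from 7.15 to 14.8 over the 9 wild-type hearts. Lyz2 per FPKM of C1qa ran the other way, from 3.14 to 3.43 in KOCKD and from 2.44 to 3.07 in KOCKD + RNLS, and from 1.74 to 3.42 in wild-type hearts, where the lowest value was that of WTSHAM replicate 1.

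**Figure D4:**
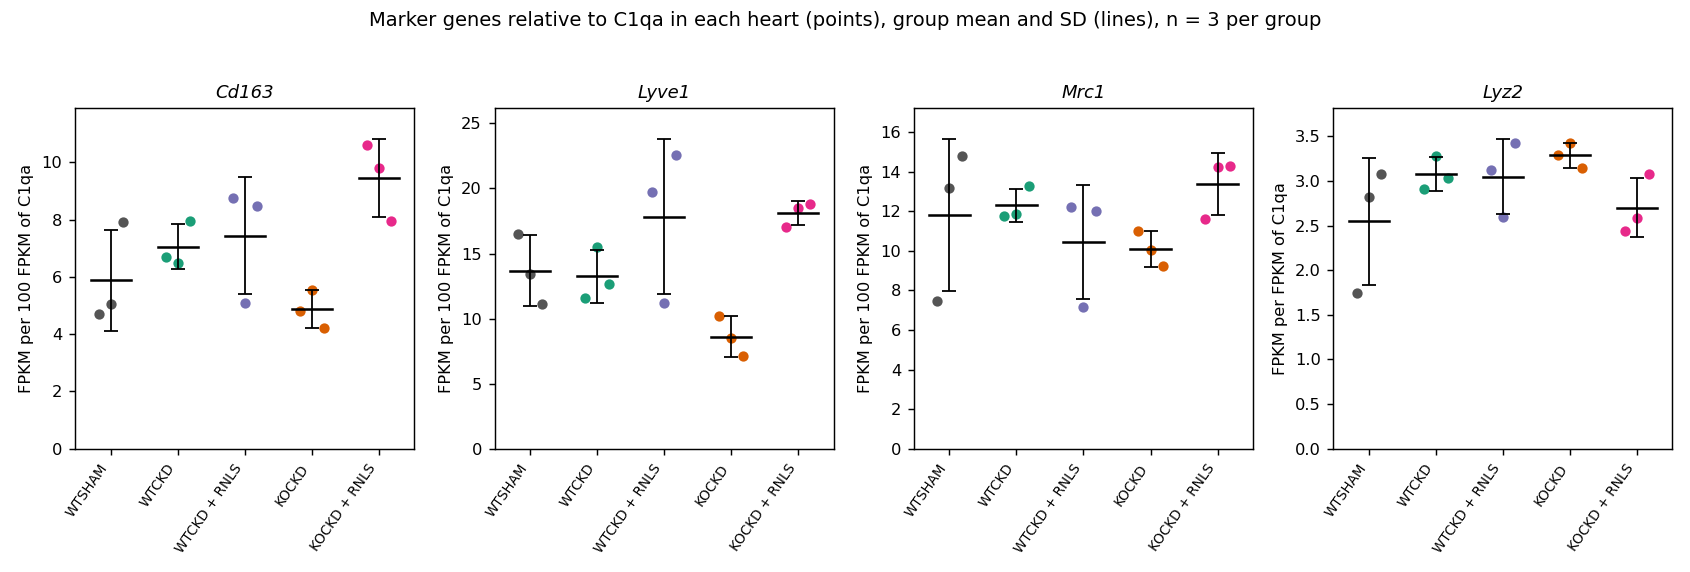
FPKM of Cd163, Lyve1 and Mrc1 per 100 FPKM of C1qa, and of Lyz2 per FPKM of C1qa, in every heart (panels by gene, axes from 0, points for hearts, lines for the mean, bars for the SD of 3 hearts). Lyve1 in KOCKD, at 7.13 to 10.2, is below the other 12 hearts, and Cd163 is lower in KOCKD than in KOCKD + RNLS in all hearts.

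Lyve1 is shared with lymphatic endothelium, so 6 other markers of that cell type were read beside it. Prox1, Flt4, Pdpn, Mmrn1, Ccl21a and Reln had counts in every library. They were read first in the pairs of groups where edgeR called Lyve1 lower. In KOCKD against WTSHAM 1 of 6 was called lower (8.35% of all genes), Mmrn1 (-1.63, edgeR adjusted p = 0.015). In KOCKD + RNLS against WTSHAM 3 of 6 were called lower (6.34% of all genes), Mmrn1 (-1.30), Pdpn (-0.88) and Ccl21a (-0.90). In KOCKD against WTCKD + RNLS 0 of 6 were called lower (4.45% of all genes). The F test over the 5 groups called Mmrn1, Pdpn and Ccl21a (22.2% of all genes). KOCKD + RNLS against WTCKD, where Lyve1 was not called, had 2 called lower (3.44% of all genes), Pdpn and Ccl21a. Between KOCKD + RNLS and KOCKD 0 of 6 were called by edgeR (16.1% of all genes). Between KOCKD and WTCKD 0 of 6 were called as well, but there edgeR called none of the 13021 genes, so that count says nothing about these markers. Their summed level was 177 to 208 CPM in WTSHAM, 179 to 202 in WTCKD, 130 to 173 in WTCKD + RNLS, 136 to 176 in KOCKD and 156 to 184 in KOCKD + RNLS. Prox1, at 811 to 1665 counts a library, was the largest part of this sum. Pdpn had 33 to 93 counts, Mmrn1 35 to 265 and Ccl21a 126 to 365, so the sum need not follow these 3 markers. Between KOCKD and WTCKD 6 of 6 markers were below 0 (50.8% of all genes), with a median of -0.38. Between KOCKD + RNLS and KOCKD 2 of 6 were (50.9% of all genes), with a median of 0.20. Their part in the values of Lyve1 was not tested.

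Markers of other cells also moved between the groups. The sum of 7 fibroblast markers was 1293 to 1759 CPM in WTSHAM, 1033 to 1585 in WTCKD, 854 to 1065 in WTCKD + RNLS, 930 to 1193 in KOCKD and 835 to 955 in KOCKD + RNLS. edgeR called 2 of 7 lower in WTCKD + RNLS against WTCKD, where 297 of all 13021 genes were called lower. It called 1 of 7 lower in KOCKD + RNLS against KOCKD, where 7.04% of all genes were. The sum of 5 blood endothelial markers was 829 to 873 CPM in WTCKD + RNLS, below the 1143 to 1311 CPM of WTCKD. Of these, 4 of 5 were called lower, against the same 297 of 13021 genes. The sum of 5 cardiomyocyte markers was 63700 to 76639 CPM in the 3 groups without RNLS and 75452 to 87258 in the 2 groups with it. Myh6, at 339883 to 600578 counts a library, was the largest part of that sum. In WTCKD + RNLS against WTCKD the 5 markers had a median log2 fold change of 0.23, with 0 below 0 and 0 called. In KOCKD + RNLS against KOCKD the median was -0.05, with 3 of 5 below 0. Myh6 (0.52) and Ryr2 (0.34) were called higher there, 2 of 5, against 1178 of all 13021 genes. The summed level of 6 neutrophil markers, which matter for Lyz2, was 2.84 to 17.2 CPM, and Ly6g, the defining marker, was at 0 in 13 libraries. The sum of 10 markers of T, B and NK cells stayed within 2.83 to 10.5 CPM, and 3 lung markers summed to at most 0.667 CPM, with Sftpa1 at 0 throughout. The part of these cell types in the macrophage values was not tested.

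Of the genes known for recruited monocytes, Ccr2 was present at low level, with 4.82 ± 0.469 CPM in WTSHAM, 3.57 ± 0.445 in WTCKD, 3.35 ± 0.928 in WTCKD + RNLS, 2.38 ± 0.529 in KOCKD and 2.24 ± 0.255 in KOCKD + RNLS (SD, n = 3 each). It was called lower than WTSHAM in both knockout groups, by a log2 fold change of -1.01 in KOCKD (SE 0.24, edgeR adjusted p = 0.0144) and -1.11 in KOCKD + RNLS (SE 0.24, edgeR adjusted p = 0.00781). It was not called lower than WTSHAM in the 2 wild-type CKD groups. Timd4, a marker of long-lived resident macrophages, stood at 4.61 ± 1.22 CPM in WTSHAM and between 1.39 ± 0.244 and 2.17 ± 0.317 in the 4 CKD groups, and it was called lower than WTSHAM in KOCKD (log2 fold change -1.28, SE 0.39, edgeR adjusted p = 0.0387) and in WTCKD + RNLS (-1.72, SE 0.40, edgeR adjusted p = 0.0159). Arg1, which marks some activated macrophages, was at 0 in 13 libraries.

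Within a group, hearts high in one macrophage marker tended to be high in the others. After the group means were removed, Pearson's r of log2 CPM over the 15 hearts was above 0 for 45 of 45 pairs of markers, from 0.105 to 0.945 with a median of 0.494. An exact two-sided permutation test within groups (7776 orders, smallest p 0.000129), adjusted over the 45 pairs, passed for 13. C1qa and C1qc were closest (r = 0.945, p = 0.000129, adjusted p = 0.00579, Spearman's rho = 0.932 with p = 0.000129, exact permutation tests). Csf1r and Mrc1 followed (r = 0.905, p = 0.000643, adjusted p = 0.0145, rho = 0.850 with p = 0.00141, exact permutation tests).

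The pairs fell into 2 sets. One held the C1q genes, with r of 0.847 to 0.945 among them. The other held Adgre1, Csf1r, Mrc1, Lyz2 and Cd163, in which 9 of 10 pairs passed, with r of 0.676 to 0.905, and Cd163 with Lyz2 (r = 0.530) did not. Between the sets r ran from 0.598 (Adgre1 with C1qc) down to 0.105 for Mrc1 with C1qa (exact permutation p = 0.661, adjusted p = 0.688). Lyve1 passed only with Cd68 (r = 0.613, exact permutation p = 0.00592, adjusted p = 0.0242, rho = 0.696 with p = 0.00604). These sets were read from the values, and the points share the library and its scaling. Without the 2 hearts farthest from the median of the gene on the x axis, 0 of 45 pairs passed, with the smallest adjusted p at 0.0521, while r was still 0.932 for C1qa with C1qc and 0.866 for Csf1r with Mrc1. Without the farthest hearts, r between the sets moved both ways. It rose for Mrc1 with C1qa (0.467) and fell for Cd163 with C1qa (-0.0932) and Lyz2 with C1qa (0.107). Adgre1 then had a higher r with C1qa (0.675) than with Mrc1 (0.546), so the split did not hold for every pair. KOCKD + RNLS replicate 1 had the highest mean deviation of the 10 markers from its group (1.41 SD) and WTCKD replicate 3 the lowest (-1.22 SD). Leaving out hearts also reduces the number of orders in the test, which limits how small its p can be.

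**Figure D5:**
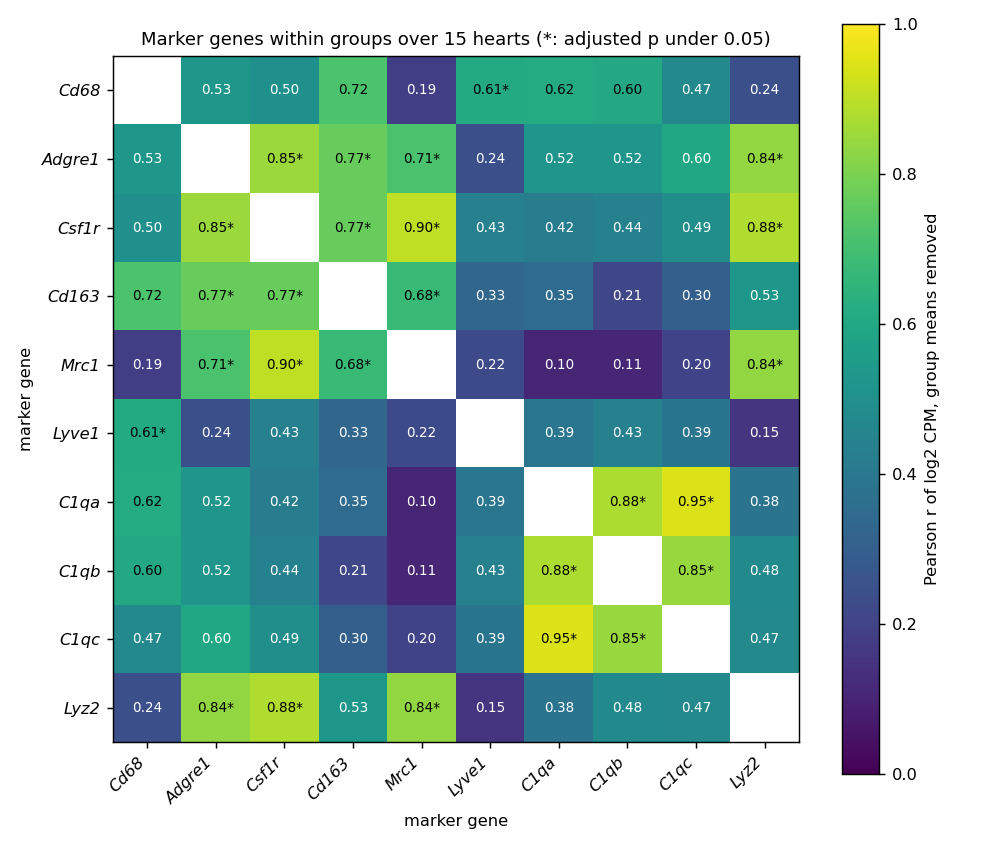
Pearson's r of log2 CPM over 15 hearts after removal of the group means, for each pair of the 10 markers (both axes), with colour from 0 to 1 and a star where the adjusted exact permutation p was under 0.05. The C1q genes form a block at 0.85 to 0.95, Csf1r, Mrc1, Lyz2 and Adgre1 a second block, and Mrc1 with C1qa is lowest at 0.10.

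As a description of likeness, 11717 other genes were ranked by their r with the mean of the 10 standardised markers over the same 15 hearts. The 10 most alike were Acot6 (0.881), Cfb (0.865), Lair1 (0.862), Pik3cg (0.838), Ncf1 (0.837), Folr2 (0.836), P3h3 (0.831), Clec3b (0.830), Ctsc (0.829) and Cadm1 (0.828). Folr2, a folate receptor of resident macrophages, was the only entry that was also in the list of resident genes. Its level was 24.1 ± 3.93 CPM in WTSHAM, 16.4 ± 1.51 in WTCKD, 11.9 ± 0.456 in WTCKD + RNLS, 14.2 ± 3.64 in KOCKD and 10.7 ± 1.98 in KOCKD + RNLS (SD, n = 3 each). Lair1, Pik3cg and Ncf1 are expressed by leukocytes, Cfb encodes a factor of the alternative complement pathway and Ctsc a lysosomal protease. Acot6 encodes an acyl-CoA thioesterase.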

How the data were processed

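Heart RNA of 15 mice was sequenced in 5 groups of 3, and samples were grouped by their titles. The authors deposited raw counts per gene in 1 table and FPKM per library. According to the study's methods and the submitters' processing notes, reads were trimmed with Trimmomatic, mapped with HISAT2, counted with HTSeq and turned into FPKM with Cufflinks. The build is mm9 in the methods and GRCm39 in the notes, and gene positions are from GENCODE for mm9 while promoters are from RefSeq for GRCm38.p6. The versions, the counting strand and the sequencer of each library were not given in the sources used here. Each deposited FPKM value was found to be the count over 1 length per gene and over the library's sum. FPKM were used only to compare genes within a heart, and all tests used counts.

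A quasi-likelihood model was fitted in edgeR 4.0.16 (R 4.3.3, limma 3.58.1) to all 15 libraries, with the group as the only term, with TMM factors and a filter at a minimum count of 10 and a minimum total of 15. The common biological coefficient of variation was 0.132. Calls are at a Benjamini-Hochberg adjusted p under 0.05. DESeq2 1.42.0, RLE factors, no filter, a replicate block, only the libraries compared, the study's rule and leaving out each library were alternatives. An atrial covariate (the mean log2 CPM of Myl7, Myl4 and Sln), leaving out hearts with Myl7 over 50 CPM, and the other 6 pairs of groups were added after the data were seen. Correlations used log2 CPM with a prior count of 2. Figures were drawn with matplotlib 3.10.9 and tables made with pandas 2.3.3 and numpy 2.4.6 in Python 3.11.15. The code was tested on simulated data.

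The 10 members, the gene lists, the tests and the rule for naming genes were chosen with earlier results of these data known. The lists were written by hand from general knowledge. Named were the members, at most 4 called genes per list and comparison, and the 10 genes most like the members. Ccr2 and Timd4 were described in all groups, and Arg1, Ly6g, Sftpa1, Lyz1 and the lymphatic markers named, after their values were seen. No columns were left without a sample, and no hearts of a group were duplicates (chi-square per degree of freedom of 4.45 to 20.4 between them).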

Additional observations from a re-analysis of the deposited data

How the results depend on the processing

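Of 518 values recomputed under other settings, 468 kept their direction and their side of the threshold, as did 551 of 618 with a heart left out. The count of called markers in WTCKD against WTSHAM was 0, but 1 with DESeq2, 2 with the replicate block and 5 at the study's rule. In WTCKD + RNLS against WTCKD it was 0, but 1 with no filter, with DESeq2 and with only the libraries compared, and 5 at the study's rule. In KOCKD + RNLS against KOCKD it was 2, but 3 with DESeq2 and with the replicate block (Cd68 added) and with only the libraries compared (Lyve1 added), 1 with the atrial covariate, 1 without the hearts with Myl7 over 50 CPM and 5 at the study's rule. KOCKD against WTCKD had 0 in every fit and 6 at the study's rule, the difference of the RNLS effects 0 and 1, and the F test over 5 groups 8 to 10 except 3 without the Myl7 hearts. With a heart left out, these counts were 0 to 1, 0 to 1, 1 to 3, 0 to 0, 0 to 0 and 8 to 10. The correlated pairs numbered 13, with 39 when group means were kept and 0 without the 2 farthest hearts. The last count comes from a test with fewer orders, so it does not show that the correlations were lost.

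Replicate numbers did not pair the mice. Of 30 pairs with the same number 5 had a correlation over 0.1 (range -0.36 to 0.33), so the block is only a check. It changed no other call of a marker than to add C1qa (adjusted p = 0.0388) and C1qc (adjusted p = 0.0422) in WTCKD against WTSHAM and Cd68 (adjusted p = 0.0448) in KOCKD + RNLS against KOCKD, in edgeR. Among the other named genes it ended the call of Slc40a1 in KOCKD + RNLS against KOCKD (edgeR adjusted p = 0.0553).

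Leaving out the 7 hearts with Myl7 over 50 CPM keeps 1 heart each of WTSHAM, WTCKD and KOCKD, each assumed to vary like the other groups. It reversed Mrc1 (0.061) and Lyz2 (0.034) in WTCKD against WTSHAM, and Cd68 (0.023), C1qa (0.029), C1qb (0.16) and C1qc (0.15) in WTCKD + RNLS against WTCKD. In KOCKD against WTCKD it reversed Adgre1 (0.21), Csf1r (0.012), C1qa (0.11), C1qb (0.24), C1qc (0.084) and Lyz2 (0.29), and in the difference of RNLS effects Adgre1 (-0.35), Csf1r (-0.048) and C1qc (-0.47). The atrial covariate reversed Mrc1 (0.13) in KOCKD + RNLS against KOCKD. None of these was called, and the cause was not tested. Libraries of 10480788 to 13424078 counts limit genes at a few CPM.

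Leaving out 1 heart turned the sign of 7 small fold changes, none of them called. They ran from -0.27 to 0.033 for Cd163 in WTCKD against WTSHAM, from -0.14 to 0.0054 for Cd68 and -0.091 to 0.25 for Lyve1 in WTCKD + RNLS against WTCKD, and from -0.18 to 0.0051 for Mrc1 in KOCKD + RNLS against KOCKD. In the difference of RNLS effects they ran from -0.30 to 0.0037 for C1qa, -0.21 to 0.14 for C1qb and -0.065 to 0.23 for C1qc. Over all genes, edgeR called 299 in WTCKD against WTSHAM, DESeq2 577 and edgeR on the 6 hearts alone 99. In WTCKD + RNLS against WTCKD these were 582, 876 and 380, and in KOCKD + RNLS against KOCKD 2095, 2389 and 3115. In the difference of RNLS effects the atrial covariate gave 342 genes and DESeq2 374, against 0.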
